A study of Mus musculus with 12 samples.

Results

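The genes described here are 9 components of Fc receptor and TREM/DAP12 signalling in mouse macrophage-like cells: the Fc gamma receptor genes Fcgr1, Fcgr2b, Fcgr3 and Fcgr4, the shared receptor chain gene Fcer1g, the receptor gene Trem2, its adaptor gene Tyrobp (which encodes DAP12), the kinase gene Syk and the adaptor gene Blnk. They were chosen by name among the 25683 genes of each count table, by a rule that uses names and no measured value, and all 9 were found once and passed the filter on low counts. The cells were J774.1, an established macrophage-like line that the labels assign to strain BALB/c. The 6 groups, of 2 libraries each, were Rictor-KO cells with isorhamnetin, Rictor-KO cells with DMSO, GATA3-KO cells with isorhamnetin, GATA3-KO cells with DMSO, WT cells with isorhamnetin and WT cells with DMSO. Isorhamnetin, a methylated plant flavonol, was given at 10 µM for 6 h, and DMSO was its vehicle. Rictor is the defining subunit of mTOR complex 2, and GATA3 is a zinc finger transcription factor best known from T cells. Each knockout is given as a single line, so what the deletion did and what that line acquired otherwise cannot be told apart.

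Fc gamma receptors bind the constant part of IgG, and in macrophages they drive uptake of antibody-coated particles and killing of antibody-coated cells. Fcgr1, Fcgr3 and Fcgr4 encode the ligand-binding chains of activating receptors that signal through the Fc receptor gamma chain, the product of Fcer1g, whereas Fcgr2b encodes the inhibitory receptor, which carries its own inhibitory motif. TREM2 binds lipids and lipoproteins and signals through DAP12. Both the gamma chain and DAP12 carry ITAM motifs, which Src family kinases phosphorylate and which then recruit the kinase SYK, and BLNK is a scaffold downstream of SYK that is best known in B cells.

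Fcgr2b (chr1:170958617-170976547), Fcgr4 (chr1:171018920-171029761) and Fcgr3 (chr1:171051174-171064935) lay within 106.3 kb of each other on mouse chromosome 1 in GRCm38, and Fcer1g (chr1:171229572-171234365) lay in the same region. Fcgr1 lay apart, at chr3:96282909-96293969, as did Trem2 (chr17:48346401-48354147), Tyrobp (chr7:30413760-30417585), Syk (chr13:52583173-52648792) and Blnk (chr19:40928927-40994535). No other gene of the tables overlapped any of the 9. At least 99.7% of the exon reads of each were unique in every library, so that reads shared between the receptor paralogs were few.

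The promoters of 8 of the 9 genes were listed by RefSeq on GRCm38.p6, as windows of 250 bases before and 50 after a start. The 250 bases before the start are shown for Fcgr1 (chr3:96293970-96294219, minus strand), Fcgr3 (chr1:171059404-171059653, minus strand), Fcgr4 (chr1:171018676-171018925, plus strand) and Trem2 (chr17:48346151-48346400, plus strand), because these 4 receptor genes held the same purine-rich motif. Capitals mark that motif, the PU.1 box GAGGAA, read here on the opposite strand as TTCCTC, and also the interferon gamma-activated site TTCNNNGAA in Fcgr1 and the interferon response core (GAAA, any 2 bases, GAAA) in Fcgr4.
Fcgr1: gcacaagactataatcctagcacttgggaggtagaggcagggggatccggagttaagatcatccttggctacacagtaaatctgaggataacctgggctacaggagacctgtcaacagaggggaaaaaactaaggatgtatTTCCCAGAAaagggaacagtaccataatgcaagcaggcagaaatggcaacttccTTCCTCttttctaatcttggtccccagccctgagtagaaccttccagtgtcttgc
Fcgr3: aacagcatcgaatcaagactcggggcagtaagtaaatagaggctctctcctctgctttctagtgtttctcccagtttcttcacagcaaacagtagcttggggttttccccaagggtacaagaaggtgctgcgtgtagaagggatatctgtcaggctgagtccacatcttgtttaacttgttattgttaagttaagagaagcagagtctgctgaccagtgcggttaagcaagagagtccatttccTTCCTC
Fcgr4: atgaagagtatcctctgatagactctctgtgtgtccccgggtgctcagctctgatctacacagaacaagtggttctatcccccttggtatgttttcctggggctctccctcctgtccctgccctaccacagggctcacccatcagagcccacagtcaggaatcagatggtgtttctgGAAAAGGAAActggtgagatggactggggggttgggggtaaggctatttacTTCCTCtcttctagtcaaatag
Trem2: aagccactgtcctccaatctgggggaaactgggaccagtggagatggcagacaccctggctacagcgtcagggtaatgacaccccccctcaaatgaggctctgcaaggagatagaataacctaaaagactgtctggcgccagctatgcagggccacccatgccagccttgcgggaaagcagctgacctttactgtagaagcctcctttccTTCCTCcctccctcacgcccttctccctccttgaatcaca

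PU.1, encoded by Spi1, is the transcription factor that specifies the macrophage lineage. GAGGAA stood on either strand of the 300-base window in Fcgr1, Fcgr3, Fcgr4 and Trem2, and at 1 of the 2 listed starts of Syk, hence in 5 of the 8 genes with an entry. It stood in 28.3% of 27025 promoter windows, counted as 1 window per gene, the first listed. By that rule it stood in 4 of the 8 genes, since the match of Syk was not at its first listed start. In the printed windows the TTCCTC began 55 bases before the start in Fcgr1, 6 in Fcgr3, 22 in Fcgr4 and 40 in Trem2. The start used for Fcgr3 was the first of 2 listed, and the window of the other held the motif too. The printed window of Fcgr3 lay inside the span given above for the gene. The site TTCNNNGAA stood in 1 of the 8 genes, Fcgr1, against 8.47% of all promoters, and the interferon response core in Fcgr4 only, against 3.49% of all promoters. The E-box CACGTG, present in 7.24% of all promoters, stood in none of the 8 windows, CATGTG (14.1%) stood in Fcgr1 and Blnk, and TGANNNNGC (41.4%), the core of the antioxidant response element, stood in Fcer1g and Blnk. No motif overlapped another in the printed windows, and a match is a description of these letters only.

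Each library held 35.7 M to 53.1 M exon reads. Of the markers listed for macrophages, Lyz2, Cd14, Csf1r, Cd68, Spi1, Itgam and Adgre1 were at 2.70 CPM or more (CPM being the exon reads of a gene scaled to library size with TMM factors) in all 12 libraries, whereas Mertk had at most 2 reads and C1qa at most 14 reads. The summed level of the 10 macrophage markers was 2719 to 5076 CPM in the 4 Rictor-KO libraries, 2233 to 2858 CPM in the 4 GATA3-KO libraries, 6131 to 6747 CPM in WT cells with isorhamnetin and 10356 to 10531 CPM in WT cells with DMSO. Of the markers of other immune cells, the summed level per library was at most 0.0492 CPM for mast cells or basophils and 0.151 CPM for T cells. It was at most 0.225 CPM for NK cells and 0.294 CPM for neutrophils, and 1.33 to 3.96 CPM for dendritic cells. Fcer1a, Kit, Ms4a1, Ly6g and Klrb1c had no read in any library. The 5 B cell markers summed to 0.273 to 1.17 CPM in Rictor-KO and 0.811 to 1.79 CPM in GATA3-KO libraries, against 0.0509 to 0.235 CPM in WT, with Cd79b at no more than 56 reads per library. The 5 osteoclast markers summed to 6.61 to 17.4 CPM in Rictor-KO and 40.3 to 46.8 CPM in GATA3-KO libraries, against 55.0 to 81.0 CPM in WT, where Dcstamp ranged over 5.41 to 55.0 CPM in all libraries. The part of the B cell and osteoclast markers in the results was not tested. Rictor was at 22.97 to 34.3 CPM in Rictor-KO libraries and at 27.6 to 36.2 CPM in GATA3-KO libraries, against 43.7 to 63.0 CPM in WT, and Gata3 was at 0.282 to 0.498 CPM in GATA3-KO libraries and at 0.331 to 0.707 CPM in Rictor-KO libraries, against 0.814 to 1.60 CPM in WT. Each targeted transcript was thus lower than in WT in both lines, and over both treatments the ranges of the 2 knockout lines overlapped. With isorhamnetin, Rictor was at 22.97 and 23.9 CPM in Rictor-KO, against 28.5 and 27.6 CPM in GATA3-KO cells, and Gata3 overlapped. With DMSO, Gata3 was at 0.282 and 0.292 CPM in GATA3-KO, from 11 and 12 reads. In Rictor-KO cells with DMSO it was at 0.707 and 0.331 CPM, from 26 and 13 reads, and Rictor overlapped between the 2 lines.

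Per kilobase of exon, the signalling chain genes Fcer1g and Tyrobp stood above the receptor genes in every group, by a margin that depended on the group. The gap to Trem2 was widest in WT cells with DMSO. It was narrowest in GATA3-KO cells with isorhamnetin, where Trem2 averaged 223 CPM per kb, Fcer1g 287 and Tyrobp 296. In WT cells with DMSO, Fcer1g averaged 510.1 ± 14.9 CPM per kb (SD, n = 2) and Tyrobp 355 ± 33.3, followed by Trem2 at 63.9 ± 0.00813, Fcgr1 at 42.7 ± 0.115, Blnk at 21.4 ± 1.52, Syk at 15.5 ± 1.53, Fcgr2b at 9.03 ± 0.0715, Fcgr3 at 2.28 ± 0.0139 and Fcgr4 at 1.40 ± 0.23 CPM per kb. Fcer1g, Tyrobp and Trem2 were the top 3 of the 9 in each of the 6 groups, and Fcgr1 was the fourth. Tyrobp was above Fcer1g in both groups of WT and GATA3-KO cells with isorhamnetin, although in GATA3-KO cells the ranges of the 2 genes overlapped. The order of the low genes depended on the group. Fcgr4 was the lowest of the 9 in WT cells under either treatment, and Fcgr3 was the lowest in all 4 groups of knockout cells. In Rictor-KO cells with isorhamnetin the ranges of neighbours overlapped from Fcgr1 through Syk and Blnk to Fcgr2b, so that Fcgr1 was not separate from Syk. With DMSO they overlapped from Syk through Blnk and Fcgr4 to Fcgr2b.

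**Figure D1:**
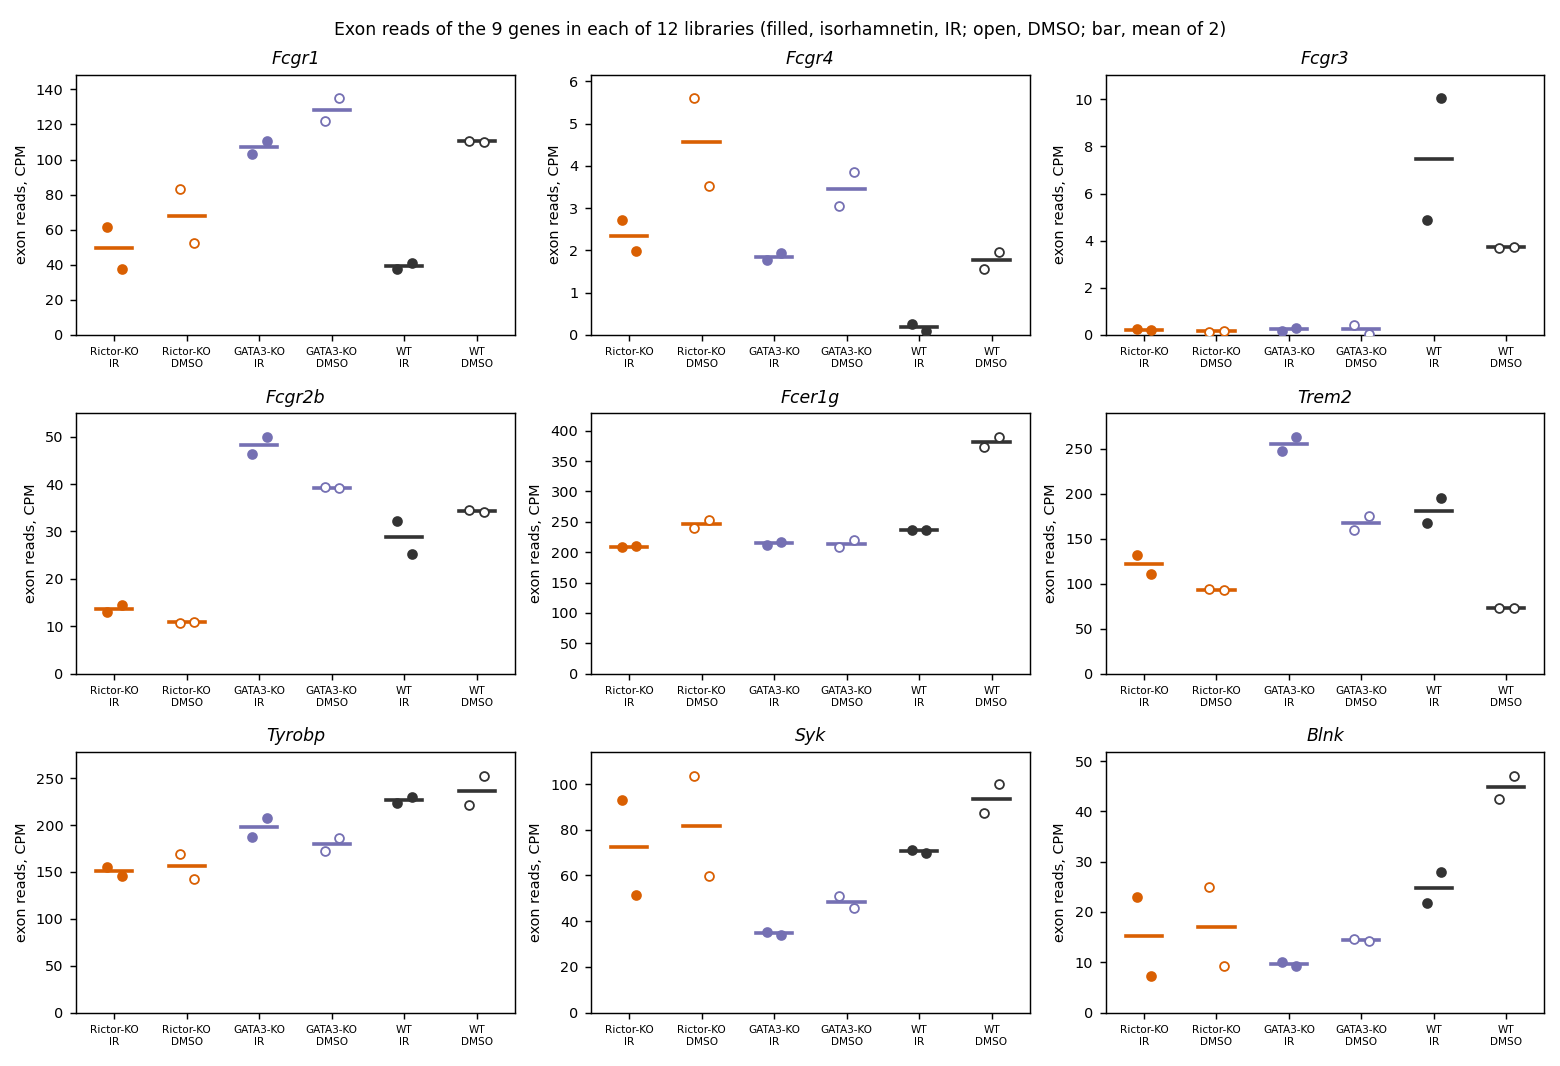
Exon reads in CPM (TMM-scaled, linear axes from 0) of the 9 genes in each of the 12 libraries, with the mean of the 2 libraries of a group as a bar. Fcgr3 lies between 0.0486 and 0.41 CPM in all 8 knockout libraries and between 3.70 and 10.1 CPM in the 4 WT libraries, and the 2 Rictor-KO libraries of a group lie apart for Fcgr1, Syk and Blnk.

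The 4 Fc gamma receptor transcripts together reached 29.5 and 20.1 CPM per kb in Rictor-KO cells with isorhamnetin and 39.4 and 25.9 in Rictor-KO cells with DMSO. They reached 53.6 and 57.6 CPM per kb in GATA3-KO cells with isorhamnetin and 60.0 and 65.5 in GATA3-KO cells with DMSO, and 26.2 and 28.8 in WT cells with isorhamnetin, against 55.3 and 55.4 in WT cells with DMSO. Fcgr1, the high-affinity IgG receptor, made up 72.6% to 81.3% of this sum in the knockout libraries, 55.6% and 55.3% in WT cells with isorhamnetin and 77.2% and 76.8% in WT cells with DMSO. The share of the inhibitory Fcgr2b was 11.5% and 19.0% in Rictor-KO cells with isorhamnetin and 7.17% and 11.0% in Rictor-KO cells with DMSO, the lowest shares of the 12 libraries being those 2 and the first of the isorhamnetin pair. It was 22.7% and 22.8% in GATA3-KO cells with isorhamnetin and 17.2% and 15.7% with DMSO, and 32.3% and 23.0% in WT cells with isorhamnetin, against 16.4% and 16.2% in WT cells with DMSO.

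**Figure D2:**
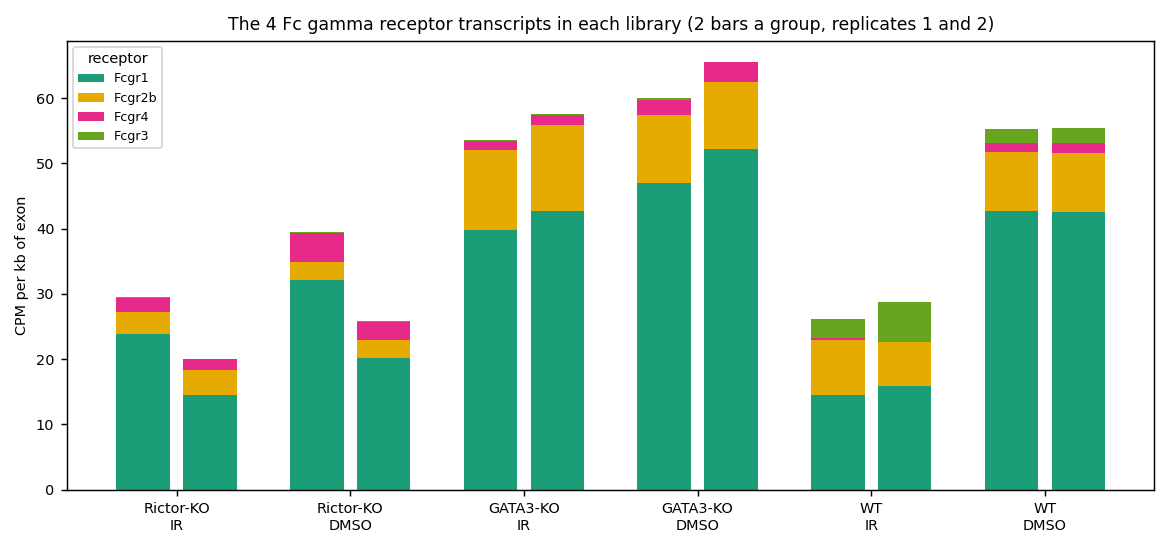
Summed CPM per kb of exon of the 4 Fc gamma receptor transcripts, 1 stacked bar per library and 2 bars per group. Fcgr1 is the largest segment in every bar, Fcgr3 is visible in the 4 WT libraries, and the 2 WT libraries with isorhamnetin reach 26.2 and 28.8, against 55.3 and 55.4 in the WT libraries with DMSO.

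Isorhamnetin in WT cells lowered the activating receptor genes Fcgr1 and Fcgr4 and the shared chain gene Fcer1g, and raised Trem2. Fcgr1 was at 37.7 and 41.3 CPM in WT cells with isorhamnetin, against 110.6 and 110.2 CPM with DMSO, a log2 fold change of -1.48 (SE 0.26, adjusted p = 0.00324). Fcgr4, the activating receptor for IgG2a and IgG2b, was at 0.252 and 0.102 CPM with isorhamnetin, from 10 and 4 reads, against 1.56 and 1.97 CPM with DMSO, from 53 and 70 reads. It fell by 3.29 in log2 (adjusted p = 8.3e-05, SE 0.46), the steepest fall of the 9, at a depth of few reads. Fcer1g was at 236.4 and 236.1 CPM with isorhamnetin, against 374 and 389 CPM with DMSO, a log2 fold change of -0.69 (SE 0.07, adjusted p = 7.35e-06). For all 3 genes the 2 groups did not overlap.

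Trem2 was at 167 and 195 CPM in WT cells with isorhamnetin, against 73.0 and 73.0 CPM with DMSO, so that it rose by 1.31 in log2 (adjusted p = 3.98e-07, SE 0.10). Tyrobp, the gene of its adaptor, was at 224 and 229.9 CPM with isorhamnetin, against 221 and 252 CPM with DMSO, and its log2 difference was -0.06 (SE 0.10, adjusted p = 0.657), with overlapping groups. In all, 1 of the 9 genes rose and 3 fell, where 38.1% of the 11808 genes tested passed the same threshold, 19.8% higher and 18.3% lower. The 2 groups did not overlap for 8 of the 9, against 76.2% of all genes tested. The median log2 fold change of the 9 was -0.41, against 0.01 over all genes tested. All 4 calls were kept in each of the alternatives tried. The interferon-stimulated genes moved in the same libraries: their summed level was 648 and 624 CPM with isorhamnetin, against 1790 and 1716 CPM with DMSO, and the part of this in the fall of Fcgr1 and Fcgr4 was not tested.

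**Figure D3:**
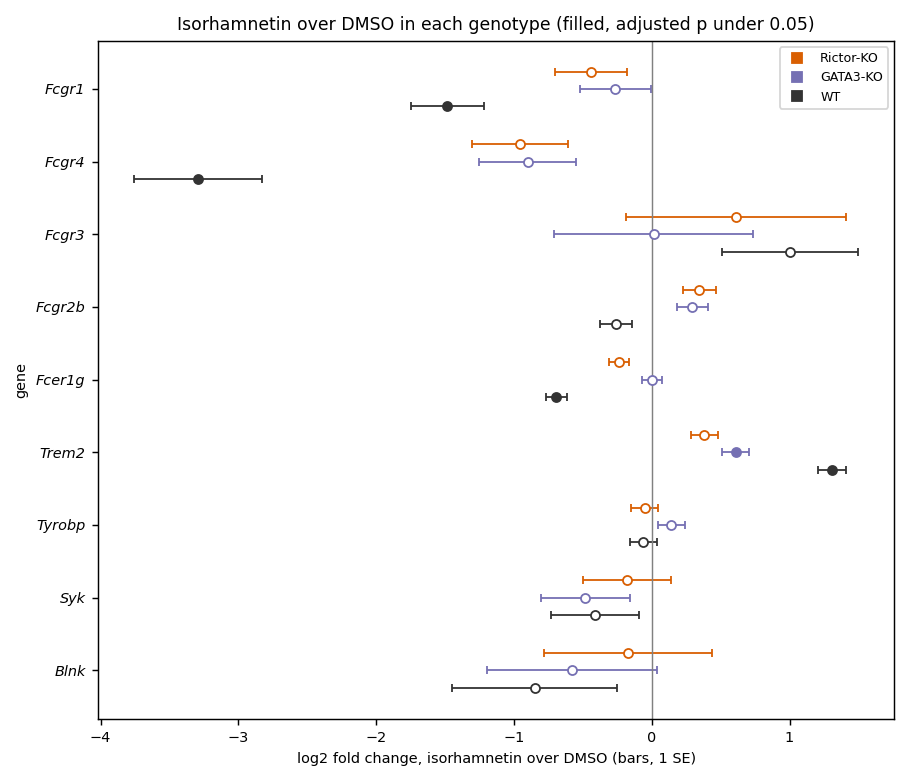
Log2 fold change of isorhamnetin over DMSO with 1 standard error (edgeR fit of all 12 libraries) for the 9 genes in Rictor-KO, GATA3-KO and WT cells. Filled points passed the threshold: Fcgr1 (-1.48), Fcgr4 (-3.29), Fcer1g (-0.69) and Trem2 (1.31) in WT, Trem2 (0.61) in GATA3-KO, and none in Rictor-KO.

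The kinase and scaffold genes were lower in both WT libraries with isorhamnetin, but their calls depended on which libraries set the spread. Syk was at 71.3 and 69.6 CPM with isorhamnetin, against 87.1 and 100.2 CPM with DMSO, and its log2 difference was -0.41 (SE 0.32, adjusted p = 0.363) in the fit of all 12 libraries. Blnk was at 21.8 and 27.9 CPM with isorhamnetin, against 42.5 and 47.0 CPM with DMSO, a log2 difference of -0.85 (SE 0.60, adjusted p = 0.315). That fit includes the Rictor-KO libraries, in which Syk ranged over 51.6 to 103.5 CPM and Blnk over 7.25 to 24.9 CPM. In a fit of the 4 WT libraries alone the adjusted p was 0.00108 for Syk and 0.000466 for Blnk, and over the alternatives tried it ranged from 2.6e-05 to 0.66 for Syk and from 7.14e-06 to 0.589 for Blnk. In the authors' deposited table for WT cells the false discovery rates were 1.08e-05 for Syk and 6.36e-10 for Blnk, at log2 fold changes of -0.41 and -0.85.

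The low-affinity receptor genes Fcgr2b and Fcgr3 gave no call in WT cells on exon reads in the fit of all 12 libraries with group means alone. Fcgr2b was at 32.2 and 25.3 CPM with isorhamnetin, against 34.6 and 34.2 CPM with DMSO (log2 difference -0.26, SE 0.11, adjusted p = 0.0914). Fcgr3 was at 4.87 and 10.1 CPM with isorhamnetin, from 193 and 395 reads, against 3.70 and 3.73 CPM with DMSO, from 126 and 133 reads (log2 difference 1.00, SE 0.49, adjusted p = 0.129). The 2 isorhamnetin libraries differed from each other more than the lower of them differed from the DMSO libraries, although the groups did not overlap. With the 4 WT libraries alone the adjusted p of Fcgr3 was 0.0458, within a range of 0.0458 to 0.721 over the alternatives, and the authors' deposited table gives a false discovery rate of 0.00158 at a log2 fold change of 1.01.

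Reads that lay in introns of Trem2, which can come from unspliced transcripts, changed more than its exon reads. There were 1180 and 1423 intron reads of Trem2 in WT cells with isorhamnetin, against 201 and 228 with DMSO, equal to 17.8% and 18.6% of its exon reads with isorhamnetin, against 8.09% and 8.77% with DMSO. Over all genes, intron reads were 6.39% and 6.51% of exon reads in the WT libraries with isorhamnetin, against 6.85% and 8.01% in those with DMSO, and so did not move in this direction. Fitted on intron reads, with 14.7% of 11450 genes called, 5 of the 9 genes passed, 1 higher and 4 lower. Trem2 rose by 2.68 in log2 (adjusted p = 2.16e-14, SE 0.16), Fcgr1 fell by 1.47 (SE 0.20, adjusted p = 1.56e-06) and Fcer1g fell by 0.86 (SE 0.15, adjusted p = 5.83e-05). Syk fell by 0.89 (SE 0.28, adjusted p = 0.0313) and Fcgr2b by 0.59 (SE 0.20, adjusted p = 0.0357), whereas Tyrobp and Blnk did not pass. Fcgr3 and Fcgr4 had at most 5 and 11 intron reads per library, too few for this fit. In the Rictor-KO and GATA3-KO libraries the intron reads of Trem2 were 14.5% to 15.7% of its exon reads with isorhamnetin, against 11.6% to 13.0% with DMSO.

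**Figure D4:**
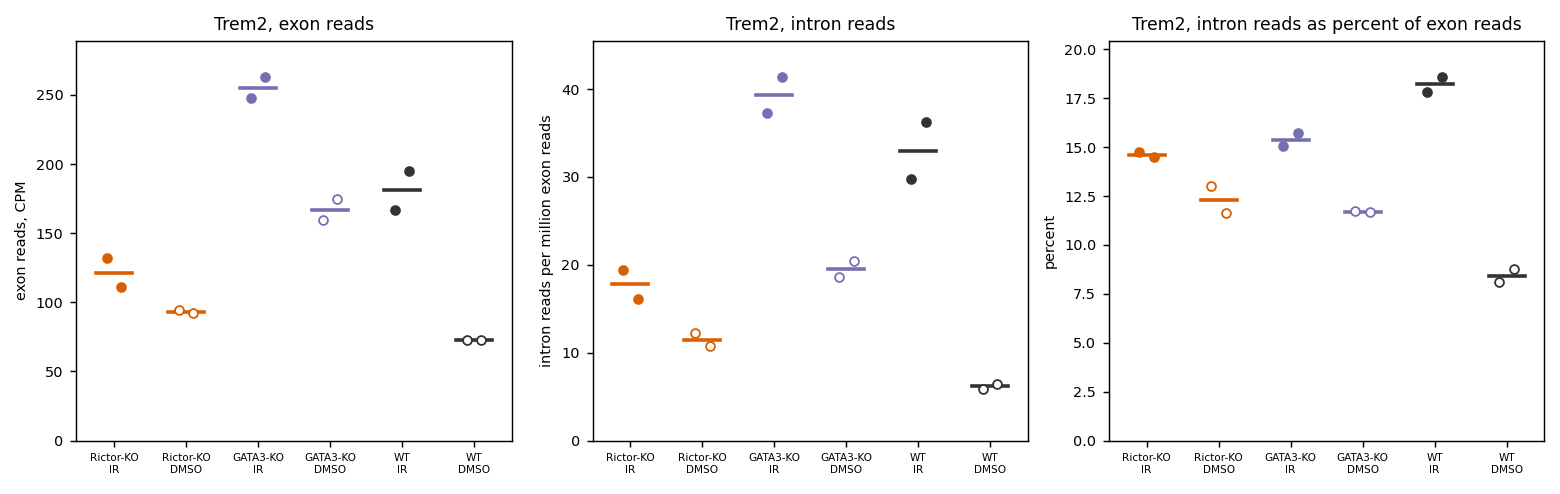
Trem2 exon reads (CPM), Trem2 intron reads scaled to the exon reads of the library, and intron reads as a percentage of exon reads, by library, with group means as bars. The percentage is 17.8 and 18.6 in WT cells with isorhamnetin, against 8.09 and 8.77 in WT cells with DMSO, the lowest of the 6 groups.

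In the knockout lines isorhamnetin gave 1 call among the 9 genes in the fit with group means alone. In GATA3-KO cells Trem2 was at 248 and 263 CPM with isorhamnetin, against 159 and 175 CPM with DMSO, and rose by 0.61 in log2 (adjusted p = 0.00119, SE 0.10). This was 1 of the 9 genes, where 26.2% of all genes passed, 10.2% higher and 15.9% lower. The groups did not overlap for 7 of the 9, against 67.6% of all genes. With a term for the replicate number within each genotype added to the fit (a replicate block), 7 of the 9 passed, against 43.8% of all genes. Fcer1g was at 212 and 217 CPM with isorhamnetin, against 209 and 219.8 CPM with DMSO in GATA3-KO cells, and the groups overlapped (log2 difference 0.00, SE 0.07, adjusted p = 1). Fcgr4 was at 1.77 and 1.93 CPM with isorhamnetin, against 3.05 and 3.87 CPM with DMSO (log2 difference -0.90, SE 0.35, adjusted p = 0.0749), and Fcgr1 at 103 and 110.7 CPM, against 122 and 135 CPM (log2 difference -0.26, SE 0.25, adjusted p = 0.5). With the 4 GATA3-KO libraries alone, the adjusted p was 0.0366 for Fcgr4 (range over the alternatives 0.0301 to 0.262), 0.0197 for Syk (0.000101 to 0.912) and 0.0216 for Blnk (0.000563 to 0.785), all 3 lower with isorhamnetin.

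In Rictor-KO cells none of the 9 genes passed edgeR's test with group means alone, where 1.91% of all genes did, 1.43% higher and 0.483% lower. For 5 of the 9 the groups did not overlap, against 40.4% of all genes. At an unadjusted p under 0.05, 4 of the 9 did, against 13.7% of all genes, and DESeq2 called 2 of the 9, against 3.74% of all genes. Trem2 was at 132 and 111 CPM with isorhamnetin, against 94.1 and 92.4 CPM with DMSO, without overlap (log2 difference 0.38, SE 0.10, adjusted p = 0.0732). Its adjusted p ranged from 0.00252 to 0.427 over the alternatives, and on intron reads, with 0.524% of genes called, it was 0.00685 at a log2 fold change of 0.76. Fcer1g was at 207.8 and 209.8 CPM with isorhamnetin, against 240.1 and 253 CPM with DMSO (log2 difference -0.24, SE 0.07, adjusted p = 0.145). The other 7 genes had adjusted p of 0.21 to 0.95 in this fit, and for Fcgr1, Syk and Blnk replicate 1 was above replicate 2 under both treatments. With the replicate block within genotype, 4 of the 9 passed, against 12% of all genes. These were Fcgr1 (log2 difference -0.45, adjusted p = 0.000276), Trem2 (0.38, 0.00252), Fcer1g (-0.24, 0.00436) and Fcgr2b (0.34, 0.0489). The labels do not say that a replicate number marks a shared culture.

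Compared directly, the responses of Fcgr4, Fcer1g, Fcgr2b and Trem2 to isorhamnetin differed between each knockout line and WT. For Trem2 the response of Rictor-KO cells minus that of WT cells was -0.93 in log2 (adjusted p = 0.000736, SE 0.14), and that of GATA3-KO minus WT was -0.70 (SE 0.14, adjusted p = 0.00261). For Fcer1g the difference was 0.45 (SE 0.10, adjusted p = 0.01) for Rictor-KO minus WT and 0.69 (SE 0.10, adjusted p = 0.000395) for GATA3-KO minus WT. Both differences use the same WT libraries. They were called for 4 of the 9 genes in Rictor-KO, where 13.8% of all genes were (6.65% higher and 7.11% lower), and for 5 of the 9 in GATA3-KO, where 28.0% were (12.4% higher and 15.5% lower), the fifth being Fcgr1 at 1.22 (SE 0.36, adjusted p = 0.0418). Without WT DMSO replicate 2 the Fcer1g difference in Rictor-KO was 0.42 (adjusted p = 0.0649), and Trem2 kept its call in each of the alternatives. The call on Fcgr2b was lost in 8 of 21 alternatives in Rictor-KO and 4 of 21 in GATA3-KO (adjusted p up to 0.141 and 0.108), that on Fcgr4 in 2 and 1 of 20 (up to 0.11 and 0.0575), and that on Fcgr1 in GATA3-KO in 9 of 21 (up to 0.163).

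The group means of Fcer1g lay closer together under isorhamnetin than under DMSO. It was at 208.8 ± 1.46 CPM in Rictor-KO, 214 ± 3.45 CPM in GATA3-KO and 236.3 ± 0.217 CPM in WT cells with isorhamnetin (SD, n = 2 each). Under DMSO it was at 246 ± 8.99 CPM in Rictor-KO, 214 ± 7.92 CPM in GATA3-KO and 382 ± 11.1 CPM in WT cells. Trem2 was not ordered in this way, since it averaged 121 ± 14.6 CPM in Rictor-KO, 255 ± 10.8 CPM in GATA3-KO and 181 ± 19.7 CPM in WT cells with isorhamnetin.

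Lists of genes around these 9 were counted in WT cells with isorhamnetin, where 19.8% of all genes rose and 18.3% fell, with a median log2 fold change of 0.01 over all genes. Of 37 ITAM kinases and adaptors tested, 18 fell and 4 rose (median log2 fold change -0.24). Among the falls were the Src family kinase gene Lyn (log2 fold change -1.25, adjusted p = 3.31e-07), whose product phosphorylates ITAMs, and Lcp2, which encodes the adaptor SLP-76 (log2 fold change -1.13, adjusted p = 1.45e-06). Of 22 other receptors that couple to ITAM adaptors, 6 rose and 1 fell (median 0.45): Plxna1, a plexin that associates with TREM2, rose by 1.35 on the log2 scale (adjusted p = 1.94e-06), and Treml4 was at 182 to 224 reads with isorhamnetin, against 8 to 12 reads with DMSO. Of 25 ITIM receptors and phosphatases, 10 fell and 4 rose (median -0.48), with Ptpn6, which encodes the phosphatase SHP-1, at a log2 fold change of -0.64 (adjusted p = 8.51e-05) and the inhibitory receptor gene Lair1 at 1.50 (adjusted p = 2.91e-05).

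Of 30 genes of the phagocytic cup and its actin, 19 fell and 1 rose in WT cells with isorhamnetin (median -0.32), among them Vasp, an actin regulator (log2 fold change -1.23, adjusted p = 2.2e-06), and Rac2, a small GTPase (log2 fold change -1.19, adjusted p = 1.85e-05). Of 25 genes linked to TREM2 as ligands, sheddases or co-expressed genes, 7 rose and 7 fell (median -0.20). Lipa, the lysosomal acid lipase gene, rose by 2.75 on the log2 scale (adjusted p = 1.84e-09), Gpnmb was at 60.5 ± 8.76 CPM with isorhamnetin, against 2.32 ± 0.298 CPM with DMSO, and the lipoprotein lipase gene Lpl fell by 1.33 (adjusted p = 3.63e-06). Of 18 interferon-stimulated genes 17 fell and none rose (median -2.21). Of 4 other Fc receptor genes tested, Trim21, an intracellular antibody receptor, fell by 1.47 on the log2 scale (adjusted p = 1.51e-05) and Fcrl1 rose by 0.83 (adjusted p = 3.21e-05). Of 15 calcium and NFAT genes 5 rose and 3 fell. Among the 8 macrophage markers tested Cd14, Itgam and Spi1 fell and Csf1r rose, and the part of this in the results on the 9 genes was not tested.

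In the knockout lines the same lists gave other counts, next to 26.2% of all genes called in GATA3-KO and 1.91% in Rictor-KO. In GATA3-KO cells with isorhamnetin 12 of the 37 ITAM kinases and adaptors fell and 3 rose, 18 of the 30 phagocytic cup genes fell and none rose, and 2 of the 18 interferon-stimulated genes fell. The inositol phosphatase gene Inpp5d, which encodes SHIP1, fell by 0.74 on the log2 scale (adjusted p = 0.00108). In Rictor-KO cells no ITAM kinase or adaptor and no phagocytic cup gene passed, 3 ITAM-coupled receptors rose (Clec4d, Cd300lb and Plxna1) and 1 of the 18 interferon-stimulated genes fell. Lipa rose in both lines, by 1.37 in Rictor-KO (adjusted p = 4.45e-06) and by 1.26 in GATA3-KO (adjusted p = 1.46e-05). The response of Lipa differed from that of WT by -1.38 (adjusted p = 8.04e-05) in Rictor-KO and by -1.49 (adjusted p = 3.07e-05) in GATA3-KO, and that of Lyn by 1.03 (adjusted p = 0.000241) in Rictor-KO and by 0.86 (adjusted p = 0.000418) in GATA3-KO.

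Without isorhamnetin, Rictor-KO cells differed from WT cells in 6 of the 9 genes, 4 lower and 2 higher, where 40.0% of all genes differed, 20.7% lower and 19.3% higher. The groups did not overlap for 8 of the 9, against 71.0% of all genes. The inhibitory receptor gene Fcgr2b was at 10.8 and 10.8 CPM in Rictor-KO, against 34.6 and 34.2 CPM in WT, and fell by 1.67 in log2 (adjusted p = 1.76e-07, SE 0.12). Fcgr3 was at 0.109 and 0.178 CPM in Rictor-KO, from 4 and 7 reads, against 3.70 and 3.73 CPM in WT, and fell by 4.66 (SE 0.67, adjusted p = 7.66e-05). Fcer1g was at 240.1 and 253 CPM in Rictor-KO, against 374 and 389 CPM in WT (log2 fold change -0.63, SE 0.07, adjusted p = 1.23e-05). Tyrobp was at 169 and 143 CPM in Rictor-KO, against 221 and 252 CPM in WT (log2 fold change -0.60, SE 0.10, adjusted p = 0.000225). For these 4 genes all Rictor-KO libraries lay below all WT libraries. On intron reads, with 18% of genes called, Tyrobp did not pass (log2 difference -0.23, SE 0.16, adjusted p = 0.377).

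Fcgr4 and Trem2 lay on the other side. Fcgr4 was at 5.60 and 3.52 CPM in Rictor-KO, against 1.56 and 1.97 CPM in WT, and rose by 1.37 (SE 0.36, adjusted p = 0.00744). Leaving out Rictor-KO DMSO replicate 1 ended this call (log2 difference 1.00, adjusted p = 0.0799), as did leaving out WT DMSO replicate 1 (1.21, adjusted p = 0.0687). Trem2 was at 94.1 and 92.4 CPM in Rictor-KO, against 73.0 and 73.0 CPM in WT, and rose by 0.35 (SE 0.10, adjusted p = 0.0111), a call lost without either WT DMSO library (adjusted p = 0.0627 without replicate 1 and 0.0671 without replicate 2). Fcgr1 was at 83.0 and 52.1 CPM, against 110.6 and 110.2 CPM (log2 difference -0.71, SE 0.26, adjusted p = 0.0623), Blnk at 24.9 and 9.25 CPM, against 42.5 and 47.0 CPM (log2 difference -1.39, SE 0.61, adjusted p = 0.119), and Syk overlapped with WT.

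GATA3-KO cells with DMSO differed from WT cells in 6 of the 9 genes, again 4 lower and 2 higher, where 53.9% of all genes differed, 27.1% lower and 26.8% higher. The groups did not overlap for any of the 9, against 79.3% of all genes. Trem2 was at 159 and 175 CPM in GATA3-KO, against 73.0 and 73.0 CPM in WT, and rose by 1.20 in log2 (adjusted p = 3.77e-07, SE 0.10). Fcgr3 was at 0.41 and 0.0486 CPM, from 16 and 2 reads, against 3.70 and 3.73 CPM (log2 fold change -4.02, SE 0.62, adjusted p = 9.69e-05). Fcer1g was at 209 and 219.8 CPM, against 374 and 389 CPM (log2 fold change -0.83, SE 0.07, adjusted p = 6.46e-07), and Tyrobp at 173 and 186 CPM, against 221 and 252 CPM (log2 fold change -0.40, SE 0.10, adjusted p = 0.00327). Without WT DMSO replicate 2 the call on Tyrobp was lost (-0.30, adjusted p = 0.0598), and on intron reads its difference was 0.09 (SE 0.16, adjusted p = 0.719). On intron reads, with 31.7% of genes called, Fcer1g did not pass (log2 difference -0.10, SE 0.14, adjusted p = 0.628), whereas Trem2 rose by 2.09 (SE 0.16, adjusted p = 3.32e-12).

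Fcgr2b, which was low in Rictor-KO cells, was at 39.4 and 39.1 CPM in GATA3-KO, against 34.6 and 34.2 CPM in WT (log2 difference 0.19, SE 0.11, adjusted p = 0.175). Fcgr1 was at 122 and 135 CPM, against 110.6 and 110.2 CPM (log2 difference 0.22, SE 0.26, adjusted p = 0.509). Fcgr4 was at 3.05 and 3.87 CPM, against 1.56 and 1.97 CPM, and rose by 0.97 (SE 0.36, adjusted p = 0.0339). That call was lost without WT DMSO replicate 1 (0.81, adjusted p = 0.176), WT DMSO replicate 2 (1.15, adjusted p = 0.0683) or GATA3-KO DMSO replicate 2 (0.79, adjusted p = 0.18). Syk was at 50.8 and 45.9 CPM in GATA3-KO, against 87.1 and 100.2 CPM in WT, and fell by 0.95 (SE 0.32, adjusted p = 0.0422), and Blnk was at 14.6 and 14.3 CPM, against 42.5 and 47.0 CPM (log2 difference -1.63, SE 0.61, adjusted p = 0.0628). In a fit of these 4 libraries alone the adjusted p was 4.09e-07 for Syk and 1.69e-09 for Blnk, and over the alternatives it reached 0.205 for Blnk. The call on Syk was lost with no filter on low counts (adjusted p = 0.0679). It was also lost without any 1 of the 4 WT or the 4 GATA3-KO libraries (log2 difference -1.05 to -0.85).

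Set directly against each other under DMSO, GATA3-KO cells were above Rictor-KO cells in 3 of the 9 genes and below them in none, where 30.1% of all genes differed, 15.4% higher and 14.7% lower. The groups did not overlap for 6 of the 9, against 62.5% of all genes. Fcgr2b was at 39.4 and 39.1 CPM in GATA3-KO, against 10.8 and 10.8 CPM in Rictor-KO (log2 change 1.86, adjusted p = 1.24e-07, SE 0.12). Trem2 was at 159 and 175 CPM, against 94.1 and 92.4 CPM (log2 fold change 0.84, SE 0.10, adjusted p = 4.11e-05). Fcgr1 was at 122 and 135 CPM in GATA3-KO, against 83.0 and 52.1 CPM in Rictor-KO (log2 change 0.93, adjusted p = 0.0306, SE 0.26), and this call was lost in 8 of 19 alternatives. These were no filter on low counts and leaving out either WT DMSO library, Rictor-KO DMSO replicate 2 or any 1 of the 4 GATA3-KO libraries (adjusted p = 0.051 to 0.177). Fcgr3 and Fcgr4 overlapped between the 2 lines. Fcer1g was lower in GATA3-KO on exon reads (log2 difference -0.20, SE 0.07, adjusted p = 0.0508) and higher on intron reads (1.08, SE 0.15, adjusted p = 2.2e-06).

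Under isorhamnetin, 5 of the 9 genes differed between Rictor-KO and WT cells, 1 higher and 4 lower, where 22.0% of all genes differed, 9.36% higher and 12.7% lower. Between GATA3-KO and WT cells 6 of the 9 differed, 4 higher and 2 lower, where 61.6% of all genes did, 29.6% higher and 32.1% lower. The groups did not overlap for 6 of the 9 in Rictor-KO, against 62.3% of all genes, and for all 9 in GATA3-KO, against 83.6%. Both comparisons share the 2 WT libraries. Fcgr4 was at 2.71 and 1.99 CPM in Rictor-KO and at 1.77 and 1.93 CPM in GATA3-KO, against 0.252 and 0.102 CPM in WT, with log2 fold changes of 3.70 (SE 0.46, adjusted p = 4.38e-05) and 3.36 (SE 0.46, adjusted p = 2.16e-05). Fcgr3 was at 0.246 and 0.199 CPM in Rictor-KO and at 0.166 and 0.299 CPM in GATA3-KO, against 4.87 and 10.1 CPM in WT, with log2 fold changes of -5.05 (SE 0.63, adjusted p = 5.08e-05) and -5.01 (SE 0.62, adjusted p = 9.56e-06). The neighbouring genes Fcgr4 and Fcgr3 thus differed from WT in opposite directions in each line under both treatments.

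Under isorhamnetin, Fcgr2b and Trem2 differed from WT in opposite directions in the 2 lines, which were not tested against each other under this treatment. Fcgr2b was at 12.9 and 14.5 CPM in Rictor-KO and at 46.4 and 49.9 CPM in GATA3-KO, against 32.2 and 25.3 CPM in WT, with log2 fold changes of -1.07 (SE 0.12, adjusted p = 1.66e-05) and 0.74 (SE 0.11, adjusted p = 5.98e-05). Trem2 was at 132 and 111 CPM in Rictor-KO and at 248 and 263 CPM in GATA3-KO, against 167 and 195 CPM in WT, with log2 fold changes of -0.57 (SE 0.10, adjusted p = 0.000739) and 0.50 (SE 0.10, adjusted p = 0.000504). On intron reads the difference of Trem2 between GATA3-KO and WT was 0.01 (SE 0.15, adjusted p = 0.984), so that this call held for exon reads and not for intron reads. Fcgr1 was at 103 and 110.7 CPM in GATA3-KO, against 37.7 and 41.3 CPM in WT, and was higher by 1.44 (SE 0.26, adjusted p = 0.00177). Tyrobp fell in Rictor-KO, at 155 and 146 CPM, against 224 and 229.9 CPM in WT (log2 fold change -0.59, SE 0.10, adjusted p = 0.000586). It did not pass on intron reads, with 6.49% of genes called (log2 difference -0.49, SE 0.16, adjusted p = 0.0696). Syk fell in GATA3-KO by 1.02 (SE 0.33, adjusted p = 0.029), a call that was lost without any 1 of the 4 GATA3-KO libraries or either WT isorhamnetin library (adjusted p = 0.0553 to 0.127), and on intron reads the difference was -0.34 (SE 0.29, adjusted p = 0.425).

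**Figure D5:**
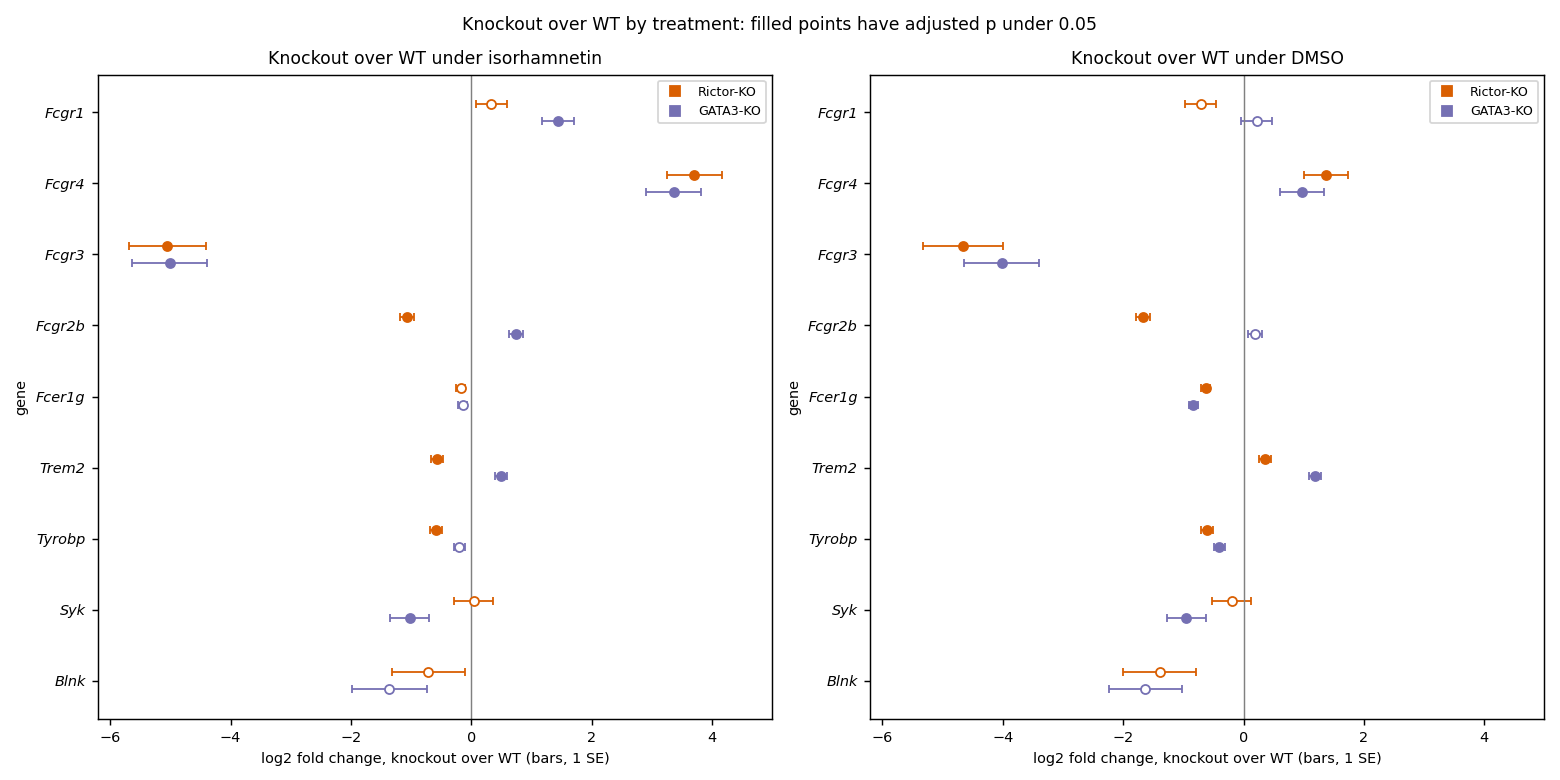
Log2 fold change of each knockout line over WT, with 1 standard error, under isorhamnetin (left) and under DMSO (right). Filled points passed the threshold, with Fcgr3 at -5.05 and -5.01 under isorhamnetin and -4.66 and -4.02 under DMSO, and Fcgr4 at 3.70 and 3.36 under isorhamnetin and 1.37 and 0.97 under DMSO (Rictor-KO and GATA3-KO).

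The surroundings of the genes were compared in the same way. Trem2 lies on chromosome 17, whose 631 tested genes had a median log2 fold change of 0.54 between GATA3-KO and WT cells under DMSO, and 22 neighbours within 1 Mb had a median of 0.60, with 12 higher and 2 lower. The median was -0.16 for the 8 neighbours within 0.5 Mb, of which 3 were higher and 2 lower, and 0.50 for the 70 within 5 Mb. Trem2 itself, at 1.20, was 0.66 above the median of the chromosome, and 16.0% of its genes were at or above Trem2. Between Rictor-KO and WT the median of chromosome 17 was 0.06, and 29.3% of its genes were at or above the 0.35 of Trem2. The part of this shift in the level of Trem2 in GATA3-KO cells was not tested. Chromosomes 1 and 3, which hold the Fc receptor genes, had medians of -0.10 and -0.05 between Rictor-KO and WT and of -0.11 and -0.05 between GATA3-KO and WT.

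The same lists were counted in the knockout lines with DMSO. Of all genes, 20.7% fell and 19.3% rose in Rictor-KO (median log2 fold change -0.01), and 27.1% fell and 26.8% rose in GATA3-KO (median 0.01). Of 37 ITAM kinases and adaptors 15 fell and 3 rose in Rictor-KO (median -0.05) and 20 fell and 4 rose in GATA3-KO (median -0.40). The Src family kinase gene Fgr was at 7.59 ± 1.39 CPM in Rictor-KO and 1.64 ± 0.0776 CPM in GATA3-KO, against 185 ± 3.12 CPM in WT, and Lcp2 was at 200.3 ± 0.205 and 128 ± 8.75 CPM, against 539 ± 7.69 CPM (SD, n = 2 each). Of 22 ITAM-coupled receptors 12 fell and 2 rose in Rictor-KO (median -1.32) and 12 fell and 3 rose in GATA3-KO (median -1.51). Clec5a, a lectin receptor that uses DAP12, was at 36.1 ± 3.36 and 63.9 ± 4.92 CPM, against 292 ± 9.97 CPM in WT, and Clec4n, which encodes Dectin-2 and uses the Fc receptor gamma chain, had at most 4 and 8 reads, against 174 to 220 reads in WT.

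Of 25 ITIM receptors and phosphatases 11 fell and 2 rose in Rictor-KO and 10 fell and 4 rose in GATA3-KO. Lair1 rose, to 31.8 ± 6.06 CPM in Rictor-KO and 29.2 ± 3.36 CPM in GATA3-KO, against 3.57 ± 0.312 CPM in WT. Of 25 genes linked to TREM2, 17 fell and 3 rose in Rictor-KO and 16 fell and 2 rose in GATA3-KO, the falls including Lpl (log2 fold changes -2.37 and -2.04, adjusted p = 2.3e-08 and 4.82e-08) and Lgals3, which encodes galectin-3 (log2 fold changes -1.27 and -1.09, adjusted p = 6.97e-07 and 1.67e-06). Of 30 phagocytic cup genes 18 fell and none rose in Rictor-KO, and 21 fell and 1 rose in GATA3-KO, with Cybb, the catalytic subunit gene of the phagocyte oxidase, at -1.65 and -2.52. Of 18 interferon-stimulated genes 17 fell and 1 rose in Rictor-KO, and 16 fell and none rose in GATA3-KO. Of the 8 macrophage markers tested 5 fell in Rictor-KO and 6 in GATA3-KO and none rose, with Cd14 at -3.02 and -2.11. Their part in the results on the 9 genes was not tested, and in bulk RNA fewer cells of a kind and less RNA per cell cannot be told apart.

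Across the 12 libraries some of the 9 genes varied together and others in opposite directions. The correlation of log2 CPM was 0.81 between Syk and Blnk, 0.77 between Fcgr3 and Tyrobp, -0.81 between Fcgr3 and Fcgr4, -0.76 between Trem2 and Syk and -0.72 between Trem2 and Fcer1g. These are descriptions over 12 libraries that share 6 groups and 3 lines. Among the 7739 or 7740 genes with a mean log2 CPM of at least 4, those most like Trem2 were Dnase2a (r = 0.98) and Pcna (0.97), those most like Fcer1g were Ddx5 (0.98), Ier2 (0.98) and Herpud1 (0.98), and those most like Fcgr3 were Sirpa (0.96), Anxa4 (0.96) and Ppm1h (0.95). Fcgr4 was most like Lrrc25 (0.97), Pou2f2 (0.97) and Ptpn6 (0.96), Fcgr2b most like Wls (0.97), Eif2s3y (0.97) and Axl (0.96), and Fcgr1 most like Sepsecs (0.96), U2af2 (0.96) and Tcf25 (0.95). Tyrobp was most like Gabarap (0.98), Cst3 (0.96) and Snap29 (0.94), Syk most like Neurl4 (0.98), Limd1 (0.96) and Gas7 (0.96), and Blnk most like Trim30a (0.95), Csf2rb (0.93) and Igsf6 (0.93). Axl, which encodes a phagocytic receptor kinase, was at 1.58 ± 1.12 CPM in Rictor-KO and 189 ± 11.2 CPM in GATA3-KO, against 190.2 ± 4.3 CPM in WT with DMSO (SD, n = 2 each).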

How the data were processed

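RNA of J774.1 cells was sequenced as Illumina libraries, per the labels' protocols. Per library, the authors deposited raw counts for every gene (total and unique exon reads, intron reads) and exon lengths, on GRCm38 per the submitters' processing notes. Which aligner and counter were used is not given in the sources used here. Among 12371 values of 1 to 4 reads, 81.3% were even, so both reads of a pair appear to be counted. The authors' deposited tables also give log2 fold changes and p-values for isorhamnetin against DMSO.

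The 9 genes, the gene lists and the tests were chosen with earlier results of these data known. Nothing in the labels ties replicates to separate cultures: the p-values reflect how far the libraries of a group lay apart, and that distance may be technical only.

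Total exon reads of the 12 libraries were fitted with edgeR 4.0.16 in R 4.3.3: filterByExpr (11808 genes), TMM, a mean per group, robust quasi-likelihood F test, 6 residual degrees of freedom, 10 contrasts, Benjamini-Hochberg adjustment over all genes within a contrast, threshold 0.05. The script was tested on simulated data. SE is the log2 fold change divided by the root of F. Levels are TMM-scaled CPM, on which 1 CPM equals about 39.5 reads. All 9 genes and, per list, up to 4 genes of smallest p were eligible to be named; some of these are not reported here. Promoters came from RefSeq (GRCm38.p6). The alternatives were unique reads, RLE size factors, no filter, DESeq2 1.42.0, only the compared groups, replicate blocks, each library left out and, added after seeing the data, intron reads and a crossed block.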

Additional observations from a re-analysis of the deposited data

Results flagged for a closer look

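For 9 results the response to isorhamnetin of a knockout line differed from that of WT by a test of the difference itself (edgeR, log2 scale, adjusted over all genes). In Rictor-KO minus WT these were Fcgr4 at 2.33 (SE 0.59, adjusted p = 0.0166), Fcgr2b at 0.604 (SE 0.17, adjusted p = 0.0277), Fcer1g at 0.452 (SE 0.10, adjusted p = 0.01) and Trem2 at -0.928 (SE 0.14, adjusted p = 0.000736). In GATA3-KO minus WT these were Fcgr4 at 2.39 (SE 0.59, adjusted p = 0.00874), Fcgr1 at 1.22 (SE 0.36, adjusted p = 0.0418), Fcer1g at 0.693 (SE 0.10, adjusted p = 0.000395), Fcgr2b at 0.553 (SE 0.16, adjusted p = 0.0208) and Trem2 at -0.698 (SE 0.14, adjusted p = 0.00261). Both sets share the 4 WT libraries.

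For Fcgr1 the call in GATA3-KO was lost without any 1 of the 4 WT or the 4 GATA3-KO libraries (adjusted p = 0.0872 to 0.163) and with no filter on low counts (0.0757). For Fcgr2b the call in Rictor-KO was lost without WT DMSO replicate 1 (0.60, adjusted p = 0.079) or 2 (0.61, 0.0867), WT isorhamnetin replicate 2 (0.44, 0.141), Rictor-KO DMSO replicate 1 (0.60, 0.0578) or 2 (0.61, 0.0544) or Rictor-KO isorhamnetin replicate 2 (0.52, 0.0979), and in a fit of the compared groups alone (0.0547). In GATA3-KO it was lost without WT DMSO replicate 1 (0.54, 0.0619) or 2 (0.56, 0.0626), WT isorhamnetin replicate 2 (0.39, 0.108) or GATA3-KO isorhamnetin replicate 2 (0.50, 0.0891). For Fcgr4 the call was lost without WT isorhamnetin replicate 2, which had 4 reads, in Rictor-KO (1.83, 0.11) and in GATA3-KO (1.89, 0.0575), and without WT DMSO replicate 2 in Rictor-KO (2.16, 0.0694). For Fcer1g it was lost in Rictor-KO without WT DMSO replicate 2 (0.42, 0.0649). On intron reads the call on Fcgr2b in Rictor-KO was also lost (1.01, adjusted p = 0.0509). The difference of Trem2 was called in all 21 alternatives in each line.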

How the results depend on the processing

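Each of the 90 results on the 9 genes was computed again under up to 21 alternatives. The count of the 9 genes called in Rictor-KO cells with isorhamnetin was 0, where 1.91% of all genes were called. It was 1 with no filter on low counts (1.75% of all genes), 2 with DESeq2 (3.74%) and 1 on intron reads (0.524%). With only the compared groups in the fit the count was 7 (against 4) in WT, where 51% of all genes were called (against 38.1%). In GATA3-KO it was 4 (against 1), where 22.1% of all genes were called (against 26.2%). On intron reads the count was 2 (against 6) for GATA3-KO against WT under DMSO, with 31.7% of all genes called (against 53.9%). It was 2 (against 5) for Rictor-KO against WT under isorhamnetin, with 6.49% called (against 22%). For the response of Rictor-KO minus WT it was 2 (against 4), with 3.84% called (against 13.8%). Intron fits hold 7 of the 9 genes. Intron reads turned the direction of Fcer1g in GATA3-KO against Rictor-KO under DMSO (1.08), of Fcer1g in GATA3-KO against WT under isorhamnetin (0.73) and of Tyrobp in GATA3-KO against WT under DMSO (0.091); the cause was not tested. In 36 cases a value past the threshold in neither fit changed sign. The median of the neighbours of Trem2 between GATA3-KO and WT was -0.16 within 0.5 Mb and 0.50 within 5 Mb, against 0.60 within 1 Mb.

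Without 1 library at a time the counts ranged over 4 to 5 for isorhamnetin in WT, 0 to 1 in Rictor-KO and 1 to 2 in GATA3-KO, 4 to 8 for Rictor-KO and 3 to 7 for GATA3-KO against WT under DMSO, 2 to 4 for GATA3-KO against Rictor-KO, 5 to 5 and 5 to 7 for Rictor-KO and GATA3-KO against WT under isorhamnetin, and 1 to 4 and 2 to 5 for the responses of Rictor-KO and GATA3-KO minus WT. A lone library left in a group was assumed to vary like the other groups. The share of all genes called also changed from fit to fit.

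Deviations of same-numbered libraries correlated at 0.823 in Rictor-KO, 0.665 in GATA3-KO and -0.185 in WT between the 2 treatments, and from -0.138 to 0.0791 elsewhere; the labels do not say that a number marks a shared culture. With a replicate block within genotype the counts for isorhamnetin were 7 in WT, 4 in Rictor-KO and 7 in GATA3-KO. The shares of all genes called there were 52.6%, 12% and 43.8%, against 38.1%, 1.91% and 26.2% without the block. The additive replicate block kept every count of the 9 within 1.5 times. With the numbers crossed in WT, chosen after seeing the data, the count was 7 in WT, where 54.1% of all genes were called. It was 7 for the response of Rictor-KO minus WT, where 33.4% were called. Depth limits Fcgr3 and Fcgr4 most, with at most 16 reads per knockout library for Fcgr3 and 10 and 4 reads for Fcgr4 in WT with isorhamnetin.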
